A study of Rattus norvegicus with 10 samples.

Results

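Lin28a, Lin28b, Igf2bp1, Igf2bp2, Igf2bp3, Hmga1 and Hmga2 encode RNA-binding and chromatin proteins that many fetal tissues make before birth. The 7 genes were taken by name from a table of 18025 rat genes, in which 6 of them had a row. Lin28a was not analysed here. The libraries came from hearts of wild-type Sprague-Dawley fetuses at embryonic day 19.5, 5 of the control group (CON) and 5 of the hyperglycemia group (HG). Dams and sires were 3 months old, and sires of both groups had normal blood glucose. HG dams received streptozotocin (STZ), which destroys pancreatic beta cells and so removes most insulin, in citric acid buffer by intraperitoneal injection on 3 consecutive days, and CON dams received the buffer alone. Diabetes was checked after 7 days as a non-fasting blood glucose above 16 mM. STZ was given to the dam, so that any direct action of the compound and the high glucose cannot be told apart in these groups. The sources do not say which hearts shared a dam, and the p-values therefore measure only the spread between these libraries.

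LIN28A and LIN28B bind the precursors of the let-7 microRNAs. LIN28 proteins can recruit uridylating enzymes, after which the precursor is degraded instead of being cut by DICER. Mature let-7 in turn represses mRNAs that include Lin28b, Hmga2, Igf2bp1 and Igf2bp2, so that a tissue tends to hold either the LIN28 proteins or abundant let-7. The IGF2BPs bind mRNAs, among them Igf2 and m6A-modified transcripts, and affect their stability, localization and translation. HMGA1 and HMGA2 are small proteins with AT-hooks that bind the minor groove of AT-rich DNA and bend chromatin. In the heart these proteins are best known from development, when cardiomyocytes still divide. Only 1 age was sampled, so the decline of these genes toward birth could not be examined here.

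The mature let-7 sequences are shown because their common seed (bases 2 to 8, in capitals) is what ties Lin28b to the Hmga and Igf2bp genes. The RefSeq table for rat held 693 mature microRNAs, and 9 of them carried the seed GAGGUAG, all of the let-7 family. MicroRNA levels were not measured in these mRNA libraries.
rno-let-7a-5p: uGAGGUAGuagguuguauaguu
rno-let-7b-5p: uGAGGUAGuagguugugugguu
rno-let-7c-5p: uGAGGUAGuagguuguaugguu
rno-let-7d-5p: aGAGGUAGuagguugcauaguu
rno-let-7e-5p: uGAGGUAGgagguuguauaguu
rno-let-7f-5p: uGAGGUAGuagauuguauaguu
rno-let-7g-5p: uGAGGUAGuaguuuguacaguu
rno-let-7i-5p: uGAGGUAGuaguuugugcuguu
rno-miR-98-5p: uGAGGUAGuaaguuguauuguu

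LIN28 proteins contact let-7 precursors in the stretch between the arms, where a GGAG motif is the best known site of contact. GGAG stood between the arms in 8 of 10 let-7 hairpins with both arms annotated in RefSeq. Of the hairpins below (assembly GRCr8), Mirlet7g lies at chr8:115701020-115701107 and Mirlet7a1 at chr17:16320133-16320226, and both hold the motif (in capitals). Mir98, at chrX:24460648-24460755, has none between its arms. All 3 lie on the plus strand.
Mirlet7g: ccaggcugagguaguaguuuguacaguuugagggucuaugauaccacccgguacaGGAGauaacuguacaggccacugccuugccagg
Mirlet7a1: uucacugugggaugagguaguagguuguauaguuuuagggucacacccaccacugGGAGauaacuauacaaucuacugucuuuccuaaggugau
Mir98: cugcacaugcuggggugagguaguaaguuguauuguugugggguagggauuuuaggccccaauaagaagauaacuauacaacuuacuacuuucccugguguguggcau

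All 6 measured genes were higher in HG hearts. With the deposited scaling, the lowest HG library lay above the highest CON library in each of them. Lin28b and Hmga2 rose the most, to 3.99 times and 2.14 times the CON mean in FPKM (fragments per gene, scaled for gene length and library size, a level that can be compared between genes). Igf2bp1, Hmga1, Igf2bp2 and Igf2bp3 followed at 1.54, 1.42, 1.29 and 1.23 times the CON mean. With limma's test over 14542 genes, adjusted by Benjamini-Hochberg, 6 of 6 genes passed an adjusted p under 0.05 in the direction of HG, against 28.4% of all genes tested. Groups without overlap and higher in HG made up 19.3% of all genes. A DEG, with a log2 fold change above 1 in addition, was found in 2 of the 6 (Lin28b and Hmga2), against 0.866% of all genes as DEGs higher in HG. This count was 1 with median-of-ratios factors (Hmga2 at 0.99) and 0 with a pseudocount of 1 FPKM, where the log2 fold change of Lin28b was 0.65 and that of Hmga2 just under 1. The median log2 fold change of the 6 genes was 0.56, against 0.09 over all genes tested. With median-of-ratios factors in place of the deposited scaling these medians were 0.47 and 0.01, and the higher share of all called genes fell from 70.7% to 47.1%. All 6 genes were called higher under that scaling too, where 15.6% of genes were higher and 17.6% lower. The groups of Hmga1 overlapped there, with HG 5 at 43.1 FPKM and CON 5 at 43.9. In bulk tissue, more cells of a type and more RNA per cell cannot be told apart.

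**Figure D1:**
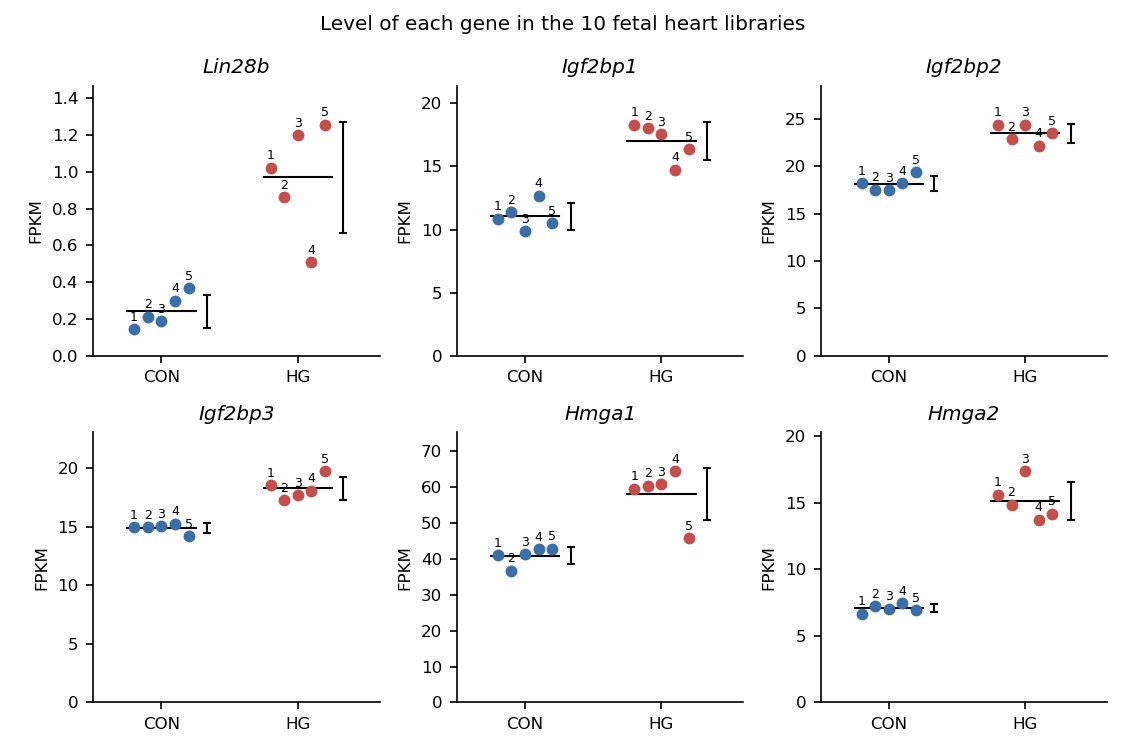
FPKM of the 6 genes in each of the 10 libraries (1 panel per gene, linear axis from 0; CON blue, HG red, numbers give the replicate, lines the group mean, bars the SD of 5 libraries). In each panel the 5 HG libraries lie above the 5 CON libraries, with Hmga1 in HG 5 at 45.7 FPKM closest to the CON range.

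Lin28b was the lowest of the 6 genes in level and had the largest relative difference. The 5 CON libraries held 0.146, 0.212, 0.190, 0.300 and 0.368 FPKM and the 5 HG libraries 1.02, 0.862, 1.20, 0.508 and 1.26 FPKM. Every HG library was thus above every CON library, although HG 4 stood well below the other 4 HG libraries. The CON mean was 0.243 ± 0.0896 and the HG mean 0.969 ± 0.300 (SD, n = 5 per group). The log2 fold change on the scale of FPKM + 0.1, which understates the change of a gene this low, was 1.62 (SE 0.242, 95% interval 1.10 to 2.15, limma adjusted p = 0.000281), the increase ranked 25 among all genes tested. These levels rest on 15 to 37 recovered reads in a CON library and 51 to 119 in an HG library, so that counting error adds to the spread within a group, more so in CON. Lin28b was the sole Lin28 gene with a value here.

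Hmga2, a classical let-7 target that marks growing and undifferentiated cells, had 6.68, 7.26, 7.06, 7.48 and 6.92 FPKM in CON and 15.6, 14.9, 17.4, 13.7 and 14.2 FPKM in HG. The lowest HG library stood at 1.84 times the highest CON library, the widest gap among the 6 genes. The log2 fold change was 1.08 (SE 0.0642, limma adjusted p = 5.33e-07), and its adjusted p ranked 19 among all genes tested. Between 473 and 532 reads per CON library and between 926 and 1180 per HG library lay behind these levels.

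Hmga1, its more widely expressed paralog, was the most abundant of the 6 genes. Mammalian genomes hold processed copies of Hmga1, so reads that the counting could split make its level less certain. It stood at 41.0, 36.7, 41.3, 42.6 and 42.9 FPKM in CON and at 59.6, 60.4, 60.8, 64.4 and 45.7 FPKM in HG. HG 5 lay close to the CON range, and within it with median-of-ratios factors. The other 4 HG libraries lay near each other. The log2 fold change was 0.50 (SE 0.0816, limma adjusted p = 0.000519), and it was 0.58 without HG 5. The ratio of Hmga2 to Hmga1 FPKM went from 0.174 ± 0.0146 in CON to 0.264 ± 0.0374 in HG (SD, n = 5), with ranges of 0.162 to 0.198 and 0.213 to 0.311 that did not overlap. Relative to the CON mean, Hmga2 was thus raised further than Hmga1 in every HG library. A ratio within a library does not depend on its scaling factor.

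The 3 Igf2bp genes rose by smaller steps. Igf2bp1, which is largely confined to fetal tissues, had 10.9, 11.4, 9.88, 12.7 and 10.5 FPKM in CON and 18.3, 18.0, 17.6, 14.7 and 16.4 FPKM in HG, a log2 fold change of 0.62 (SE 0.0751, limma adjusted p = 7.08e-05). Igf2bp2, the paralog that adult tissues keep, had 18.2, 17.5, 17.5, 18.2 and 19.4 FPKM in CON and 24.4, 22.8, 24.4, 22.2 and 23.5 FPKM in HG, a log2 fold change of 0.37 (SE 0.0432, adjusted p = 5.67e-05). Igf2bp3, another fetal paralog, had 15.0, 15.0, 15.1, 15.3 and 14.2 FPKM in CON and 18.5, 17.2, 17.7, 18.1 and 19.7 FPKM in HG, a log2 fold change of 0.29 (SE 0.0445, adjusted p = 0.000322). In none of the 3 did the groups overlap, and Igf2bp3 had the narrowest spread in CON, with a coefficient of variation of 2.72%.

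Summed over the 3 paralogs, the Igf2bp level had a CON mean of 44.1 ± 1.33 FPKM and an HG mean of 58.7 ± 2.37 FPKM (SD, n = 5). Igf2bp1 made up 25.0% ± 1.70 of that sum in CON and 28.9% ± 1.76 in HG, and the ranges of this share overlapped. Igf2bp3 made up 33.8% ± 1.23 in CON and 31.1% ± 1.74 in HG, again with overlapping ranges. The ratio of Igf2bp1 to Igf2bp3 was 0.743 ± 0.0633 in CON and 0.935 ± 0.105 in HG (SD, n = 5), with overlapping ranges as well. The total was thus separated between the groups in every library, while the shares shifted in their means with overlap. A change in the make-up of the Igf2bp pool was not tested.

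**Figure D2:**
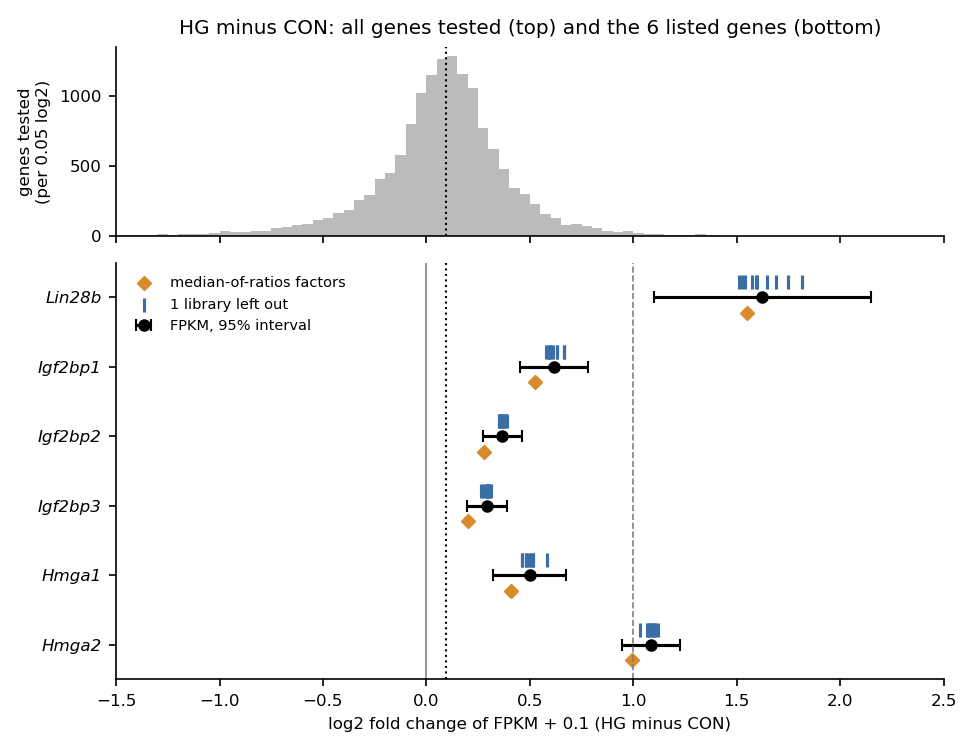
Top, number of genes per 0.05 of log2 fold change over all genes tested (dotted line, their median of 0.09). Bottom, the log2 fold change (HG minus CON) of the 6 genes with its 95% interval (black), with median-of-ratios factors (orange) and with 1 library left out in turn (blue). No estimate reaches 0, and Hmga2 at 0.99 with median-of-ratios factors falls just short of the dashed line at 1.

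The order of the levels per length was the same in both groups, namely Hmga1, Igf2bp2, Igf2bp3, Igf2bp1, Hmga2 and Lin28b. In CON no neighbours in this order overlapped in their ranges. In HG the ranges of Igf2bp3 (from 17.2 FPKM) and Igf2bp1 (up to 18.3 FPKM) overlapped, as did those of Igf2bp1 (from 14.7 FPKM) and Hmga2 (up to 17.4 FPKM). The 6 genes did not all follow the same order among the HG libraries. HG 4 was the lowest HG library for Lin28b, Igf2bp1, Igf2bp2 and Hmga2 and the highest for Hmga1, while HG 5 was the highest for Lin28b and Igf2bp3 and the lowest for Hmga1. Relative to the CON mean of each gene, the median over the 6 genes lay between 1.40 times in HG 5 and 1.56 times in HG 1.

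**Figure D3:**
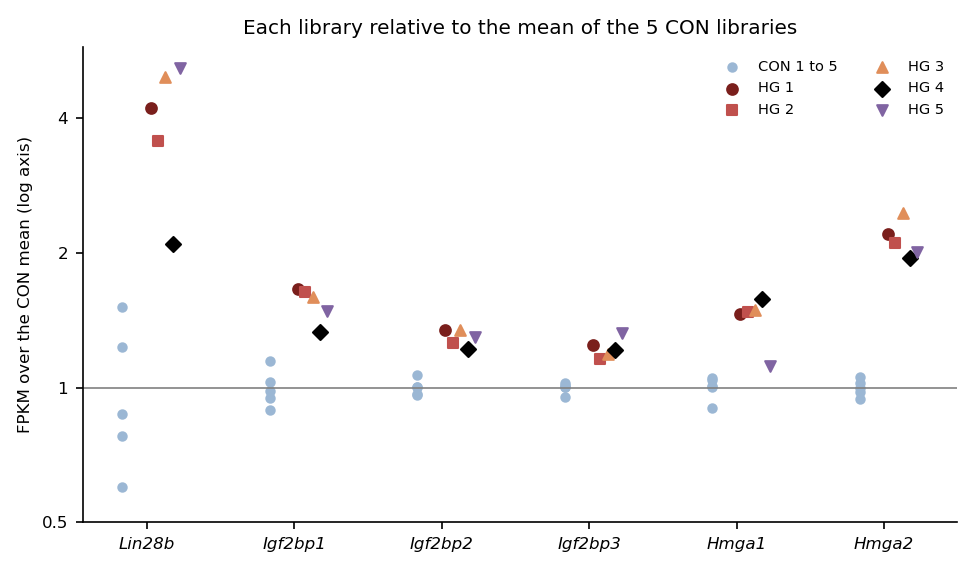
FPKM of each library divided by the mean of the 5 CON libraries, on a log axis, for the 6 genes (pale circles, CON; other symbols, each HG library). HG 4 (black diamonds) is at 2.09 times for Lin28b, where the other HG libraries lie between 3.55 and 5.17 times, yet it is the highest HG library for Hmga1.

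Promoter sequence in the RefSeq table (assembly GRCr8) was at hand for 5 of the 6 genes, as the 250 bases before the start of the gene. They are shown for the pair that rose the most and for Igf2bp2, which differs from them in base composition. The Hmga2 stretch, chr7:57880342-57880591 on the minus strand, was 72.8% pyrimidine on the strand of the gene, more than 99.8% of the 33469 promoters in the table. The Lin28b stretch, chr20:50532502-50532751 on the minus strand, was 45.6% G or C. The Igf2bp2 stretch, chr11:92378658-92378907 on the plus strand, was 82.4% G or C.
Hmga2: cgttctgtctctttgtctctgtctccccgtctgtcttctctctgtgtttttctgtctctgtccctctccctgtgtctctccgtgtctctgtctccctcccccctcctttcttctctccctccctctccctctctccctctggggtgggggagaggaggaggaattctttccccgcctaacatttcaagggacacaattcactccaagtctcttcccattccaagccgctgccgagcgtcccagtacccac
Lin28b: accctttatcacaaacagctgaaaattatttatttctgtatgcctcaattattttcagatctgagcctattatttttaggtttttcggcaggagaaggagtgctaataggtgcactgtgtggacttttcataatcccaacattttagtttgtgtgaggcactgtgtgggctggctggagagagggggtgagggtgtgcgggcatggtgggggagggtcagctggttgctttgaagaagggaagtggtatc
Igf2bp2: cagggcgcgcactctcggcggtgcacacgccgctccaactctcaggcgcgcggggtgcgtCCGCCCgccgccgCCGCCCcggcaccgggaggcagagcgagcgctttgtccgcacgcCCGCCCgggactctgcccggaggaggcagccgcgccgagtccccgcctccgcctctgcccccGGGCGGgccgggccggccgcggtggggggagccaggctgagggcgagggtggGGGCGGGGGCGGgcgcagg
Capitals mark the GC box GGGCGG on either strand. It occurred 6 times in Igf2bp2, 5 times in Hmga1 and 1 time in Igf2bp3, counting overlapping matches, and in 30.5% of all promoters of this length. The CCAAT box (CCAAT, in 34.0% of promoters) and the TATA box (TATAAA, in 12.9%) were searched on both strands too and had no match in the 5 genes. The E-box CACGTG, in 5.59% of promoters, had 1 match, in Igf2bp3. Lin28b and Hmga2 held none of these 4 motifs, which says only that these letters are not in the window.

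On the list of genes that make, load and degrade microRNAs such as let-7, 13 of 20 tested were called higher in HG. On this list 0 were called lower, and the median log2 fold change was 0.17 (0.09 over all genes). Zcchc3, which is counted among the higher genes (0.29), is not an established microRNA processing gene. Over all genes tested, 28.4% were called higher and 11.8% lower, or 15.6% and 17.6% with median-of-ratios factors. Every list count here and below is to be read beside these shares. Changes of listed genes are given as log2 fold changes throughout. Hnrnpa1, an RNA-binding protein that acts on let-7 processing, had a CON mean of 308 ± 9.46 FPKM and an HG mean of 412 ± 21.5 FPKM (SD, n = 5), a log2 fold change of 0.42 (limma adjusted p = 1.55e-05). The exonuclease Xrn2 rose by 0.41 (adjusted p = 3.67e-05) and Dicer1, which cuts the precursor, by 0.26 (adjusted p = 0.000686). Drosha and Dgcr8, which cut the primary transcript, were not called, at 0.05 and 0.03. Tut4 and Tut7, the uridylating enzymes that LIN28 proteins can recruit, were called at 0.28 and 0.23. Dis3l2, which degrades the uridylated precursor, was not called at -0.12. With median-of-ratios factors 8 genes of the list were called higher and 1 lower, Tut7 lost its call (adjusted p = 0.0903) and Dis3l2 gained one (-0.21). Drosha, Dgcr8, Tut4, Tut7 and Dis3l2 were singled out for their role, after their values were seen. Trim71, itself a let-7 target, lay below the filter on low values.

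Of 32 tested let-7 targets other than the 6 genes, 16 were called higher and 1 lower, with a median of 0.23. Mycn, a growth-promoting transcription factor, had a CON mean of 12.9 ± 0.876 FPKM and an HG mean of 20.6 ± 2.55 FPKM (SD, n = 5), a log2 fold change of 0.66 (limma adjusted p = 6.60e-05). Limd2 rose by 0.54 (adjusted p = 7.94e-05). Hras, a small GTPase of growth signaling, fell by 0.28 on the log2 scale (adjusted p = 0.000141). The other 15 were not called, and among these Myc stood at 12.1 FPKM in CON and 11.8 in HG. With median-of-ratios factors the counts were 11 higher and 3 lower.

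Among 12 tested transcripts known to be bound by IGF2BPs, 4 were called higher and 2 lower, with a median of 0.09, as over all genes tested. Igf2, the fetal growth factor after which the family is named, had a CON mean of 342 ± 43.2 FPKM and an HG mean of 442 ± 34.4 FPKM (SD, n = 5), a log2 fold change of 0.38 (limma adjusted p = 0.00370). The cell surface receptor Cd44 rose by 0.25 and the cyclin gene Ccnd1 by 0.22 (adjusted p = 0.0161 and 0.00192). Ccng1 fell by 0.61 and the laminin gene Lamb2 by 0.47 on the log2 scale (adjusted p = 1.58e-05 and 2.62e-05). With median-of-ratios factors 2 were called higher and 2 lower, and Cd44 was no longer called (adjusted p = 0.104).

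Of 20 tested writers, erasers and other readers of m6A, the mRNA mark that IGF2BPs can read, 5 were called higher and 1 lower, with a median of 0.10, where 28.4% and 11.8% of all genes were called higher and lower. The readers Rbmx, Fmr1 and Hnrnpa2b1 rose by 0.47, 0.34 and 0.24 (limma adjusted p = 6.79e-05, 0.000865 and 0.00219). Rbm15b, a subunit of the writer complex, fell by 0.69 on the log2 scale, from 14.0 ± 1.17 to 8.64 ± 0.623 FPKM (SD, n = 5; adjusted p = 1.54e-05). The catalytic subunit Mettl3 was at 17.3 FPKM in CON and 17.9 in HG and was not called. With median-of-ratios factors 4 were higher and 3 lower.

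Of 13 tested high mobility group genes outside the Hmga family, 10 were called higher and 1 lower, with a median of 0.32. Hmgn5, a nucleosome-binding protein, had a CON mean of 3.25 ± 0.508 FPKM and an HG mean of 6.36 ± 0.486 FPKM (SD, n = 5), a log2 fold change of 0.96 (limma adjusted p = 2.37e-05), just under the threshold of a DEG. Ssrp1, a subunit of the histone chaperone FACT, rose by 0.39 and Hmgn2 by 0.34 (adjusted p = 2.14e-05 and 9.04e-05). Hmg20b fell by 0.19 on the log2 scale (adjusted p = 0.0225). With median-of-ratios factors 8 were higher and 1 lower.

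Most genes on the proliferation list and on the list of fetal growth genes were also higher in HG. Growth and cell cycle genes on the earlier lists were mixed, with Ccnd1 higher, Ccng1 lower and Myc not called. All 22 proliferation genes tested were called higher, with a median of 0.37, and 14 were called with median-of-ratios factors. Ccnb1, a mitotic cyclin, had a CON mean of 33.4 ± 1.40 FPKM and an HG mean of 50.4 ± 1.88 FPKM (SD, n = 5), and Ccnb1, Birc5 and Ccnb2 had log2 fold changes of 0.59, 0.56 and 0.45 (limma adjusted p = 1.20e-06, 2.47e-06 and 1.81e-06). Of 15 tested fetal growth genes that decline after birth, 13 were higher and 1 lower, with a median of 0.38, and 11 and 1 with median-of-ratios factors. The imprinted genes Mest, Igf2r and Grb10 rose by 0.74, 0.48 and 0.25 (adjusted p = 2.11e-05, 7.56e-06 and 5.85e-05), whereas the imprinted Dlk1 fell by 0.96 on the log2 scale, from 27.3 ± 4.26 to 14.2 ± 3.56 FPKM (adjusted p = 0.000694). Mycn, Igf2 and Plag1 also stand on earlier lists, as does Rrm2 of the proliferation list. Dicer1, Ccnd1 and Myc are shared between earlier lists, so that the list counts are not independent of each other.

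**Figure D4:**
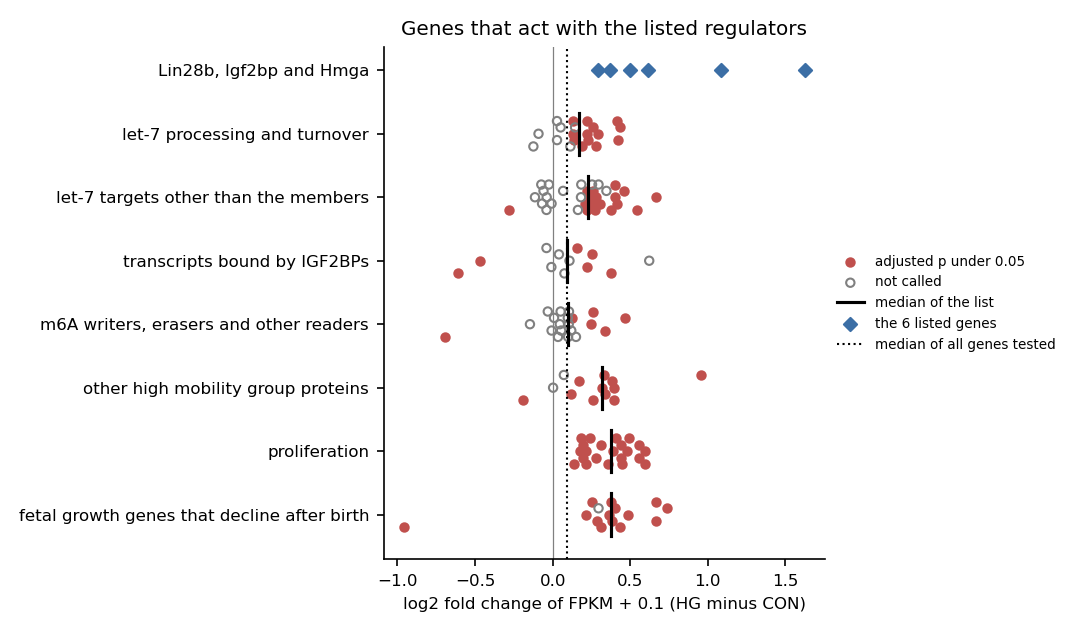
Log2 fold change (HG minus CON) of each tested gene on 7 lists and of the 6 genes (blue), with filled points for an adjusted p under 0.05, open points for genes not called, a bar for the median of a list and a dotted line for the median of all genes (0.09). The proliferation list holds filled points to the right of 0 alone, while the m6A list centres on the dotted line.

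Markers of the tissue and of other cells were read beside these results, since the labels give heart tissue while a figure legend of the study speaks of isolated cardiomyocytes. The cardiomyocyte genes were abundant in every library, at a summed 28179 to 29739 FPKM in CON and 24057 to 27952 in HG, with 1 of 11 called higher (Nppa) and 7 lower. The proliferation genes summed to 1004 to 1076 FPKM in CON and 1285 to 1434 in HG, and HG 4, with the lowest Lin28b among HG libraries, had the highest sum of both lists in HG. Of 6 macrophage markers 3 were called higher and 0 lower, with sums of 28.3 to 35.1 FPKM in CON and 33.0 to 43.4 in HG. Of 12 genes of red cell precursors 2 were called higher and 5 lower, with sums of 92.9 to 126 FPKM in CON and 82.6 to 102 in HG. Fibroblast markers were called higher in 2 and lower in 4 of 8, endothelial markers in 2 and 0 of 7. With median-of-ratios factors the higher and lower calls were 1 and 8 for cardiomyocyte genes, 2 and 0 for macrophage markers, 0 and 7 for red cell precursors, 2 and 6 for fibroblast markers and 1 and 1 for endothelial markers. The part of these cells in the levels of the 6 genes was not tested. Genes of germ cells and pluripotent cells, which can express the Lin28 genes, summed to at most 0.173 FPKM in any library and had no member above the filter.

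Liver, a fetal organ near the heart in which Lin28b and Igf2bp genes are active, was traced by transcripts that were higher in CON libraries than in HG. The 9 liver genes in the table summed to 3.15, 8.55, 8.38 and 5.92 FPKM in CON 1, 2, 4 and 5, to 86.9 FPKM in CON 3, and to 1.35 to 2.68 FPKM in HG. Of 8 tested, 5 were called lower in HG and 0 higher, and 4 and 0 with median-of-ratios factors. CON 3 was neither the lowest nor the highest CON library for Lin28b, Hmga1, Hmga2 and Igf2bp3, and it was the lowest for Igf2bp1 and Igf2bp2. Without CON 3 the log2 fold changes were 1.57 for Lin28b, 1.08 for Hmga2, 0.58 for Igf2bp1, 0.50 for Hmga1, 0.35 for Igf2bp2 and 0.30 for Igf2bp3, and all 6 were still called. Genes of the Y chromosome were at a summed 38.0 to 44.4 FPKM in 4 libraries, 2 of each group, and under 1 FPKM in the other 6, and the 6 genes kept their calls with these genes as a covariate.

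LIN28B is also known for its part in the switch between fetal and adult globins. The embryonic globin gene Hbz ranged from 1.49 to 3.28 FPKM in CON and from 30.4 to 80.4 FPKM in HG, a log2 fold change of 4.07 (limma adjusted p = 1.46e-06). Hbe1 ranged from 36.5 to 65.1 FPKM in CON and from 141 to 393 FPKM in HG, a log2 fold change of 2.24 (adjusted p = 2.06e-05). The adult genes Hba-a1 and Hbb fell by 0.52 and 0.67 on the log2 scale (adjusted p = 0.0179 and 0.0113), and Hbg1 was not called at 0.43 (adjusted p = 0.231). Globin copies share sequence, so their split is uncertain, and these 5 genes were chosen after their values were seen. Hemoglobin genes, 13 in all, together made up 2.30% to 4.25% of FPKM in CON libraries and 1.89% to 2.58% in HG libraries. A link between Lin28b and the globins was not tested.

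**Figure D5:**
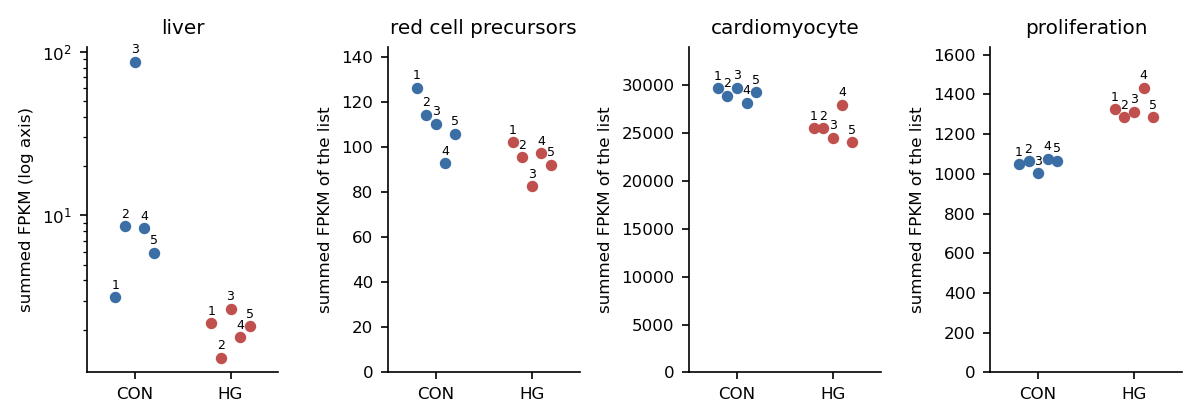
Summed FPKM per library (CON blue, HG red, numbers give the replicate) of the liver genes (log axis), the genes of red cell precursors, the cardiomyocyte genes and the proliferation genes (linear axes from 0). CON 3 stands at 86.9 FPKM for liver genes, far above the other 9 libraries, and HG 4 has the highest HG sum of cardiomyocyte and of proliferation genes.

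The genes whose log2(FPKM + 0.1) followed each of the 6 most closely over the 10 libraries were picked by Pearson's correlation with genes averaging 1 FPKM or more as candidates. For Lin28b these were the splicing factor gene U2af2 (r = 0.991) and the RNA helicase gene Ddx17 (r = 0.985), for Hmga2 Tro and Rai14 (both r = 0.996), and for Hmga1 Bap1, a deubiquitinase (r = 0.993), and Smg9, of nonsense-mediated decay (r = 0.971). For Igf2bp1 they were Rab34 and Snx9 (r = 0.977 and 0.976), for Igf2bp2 Nmt2 and Pwp1 (r = 0.993 and 0.988), and for Igf2bp3 Cenpt and Nfx1 (r = 0.982 and 0.980). All 12 were called higher in HG, and the points share the split between groups and the library scaling. U2af2 rose by only 0.21 on the log2 scale, from 106 ± 3.35 to 122 ± 4.78 FPKM (SD, n = 5). Its r with Lin28b was 0.988 within CON and 0.923 within HG (n = 5 each). U2af2 was picked for its high r over these same libraries, which by itself raises both values. These correlations describe 10 libraries and carry no test.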

How the data were processed

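Stranded mRNA libraries of fetal rat hearts were compared between 5 CON and 5 HG libraries, grouped by the sample titles. The authors deposited FPKM, in which reads per gene are divided by gene length and library size. The submitters' processing notes name fastp, HISAT2, HTSeq, R 3.2.0 and the build mRatBN7.2, without their roles. The methods of the study mention a library of pooled RNA and the labels heart tissue, and the deposited values differ between libraries. All columns of samples were used. Each library held 16672876 to 19109844 reads on genes, recovered from the step between FPKM values (100% of values whole within 0.05 of a read), so that genes under 1 FPKM rest on few reads.

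Python 3.11.15, numpy 2.4.6, pandas 2.3.3 and matplotlib 3.10.9 were used. Genes averaging 0.1 FPKM or more (14542, with 3483 below) entered a limma 3.58.1 model of log2(FPKM + 0.1) in R 4.3.3 (trend on expression, no covariate, adjusted p by Benjamini-Hochberg over all genes). The methods of the study name DESeq, which needs counts, and it was not used. A gene was called at an adjusted p under 0.05, and was a DEG with an absolute log2 fold change above 1 as well. The model was tested on simulated data. Alternatives were 12 other settings and each library left out in turn.

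The 7 genes and the gene lists were chosen with earlier results of these data known. Named genes are the 7, up to 3 higher and 3 lower genes per list with the smallest adjusted p, and 2 genes closest to each of the 6, of which 1 is not reported here, and others are marked. Skeletal muscle markers were called higher in 1 and lower in 1 of 4 tested, thymus and lymphocyte markers in 0 of 3, and lung epithelium had 0 tested. Sequences come from RefSeq tables of GRCr8, another build than that of the values, and were matched by symbol.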

Additional observations from a re-analysis of the deposited data

Results flagged for a closer look

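Samples far from the other 4 of their group were sought with Dixon's test, at a critical value of 0.71 for 5 samples, in 24 groups of values (the levels of the 6 genes and the Igf2bp sum, Igf2bp shares and paralog ratios, in CON and in HG). It marked 2 of them, and chance marks about 1 in 20. Igf2bp3 in CON 5, at 14.2 FPKM, lay below the other CON libraries, with a gap of 0.721 of the range of the group. Without CON 5 its log2 fold change was 0.27 and it was still called (limma adjusted p = 0.00109). Hmga1 in HG 5, at 45.7 FPKM, lay below the other HG libraries, with a gap of 0.740 of the range. Without HG 5 its log2 fold change was 0.58 (limma adjusted p = 1.28e-05). HG 5 was the highest HG library for Lin28b and Igf2bp3, so that it did not stand low in all 6 genes.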

How the results depend on the processing

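All 6 genes kept their direction and their call in each of the 131 refits that gave a value, which were 22 alternatives per gene less the filter at a mean of 1 FPKM for Lin28b, whose mean lies below it. Log2 fold changes ranged from 0.65 (pseudocount 1) to 1.98 (voom on recovered reads) for Lin28b and from 0.99 (median-of-ratios factors) to 1.12 for Hmga2, and the highest adjusted p of any gene was 0.00424. The count of DEGs among the 6, 2 in the report, was 0 with a pseudocount of 1, 1 with the filter at a mean of 1 FPKM (Lin28b left out) and 1 with median-of-ratios factors (Hmga2 at 0.99). The number of all genes called higher, 4127 in the report, was 2271 with median-of-ratios factors and 2615 with quantile normalization, and the proliferation genes called were 14 of 22 with median-of-ratios factors. With higher and lower calls of a list added together, 153 of 154 refits of list counts stayed within 1.5 times, but with median-of-ratios factors the higher calls alone went from 13 to 8 for let-7 processing and from 4 to 2 for transcripts bound by IGF2BPs, and the lower calls from 1 to 3 for let-7 targets and for m6A genes. Same-numbered CON and HG libraries did not deviate together (r from -0.126 to 0.108). This shows no strong shared deviation by number, but it cannot tell whether the numbers pair the libraries in a weaker way. With the replicate number as a block all 6 genes were still called, with Lin28b at 1.62 (adjusted p = 0.00174) and Igf2bp3 at 0.29 (adjusted p = 0.00424). Depth limits Lin28b, at 15 to 37 reads in CON, more than the other 5 genes, all above 300 reads in every library.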
